A study of Mus musculus with 15 samples.

Results

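The comparison concerned the addition of mutant NRAS to BCL2 in mice that carry both transgenes under the same promoter. Members were the arrays whose sample titles name the genotypes NRAS/BCL2 and BCL2, 6 of the 15 arrays of the series used here. AML post MDS mice (acute myeloid leukemia after myelodysplastic syndrome, n = 3, mice 3622, 3626 and 3518) carried human NRASD12, an activated RAS, and human BCL2. Their founder, MRP8hBCL2 (n = 3, mice 3012, 3386 and 3391), carried human BCL2 alone. All 6 mice were FVB/N, and in both groups each transgene was driven by the promoter of human MRP8 (S100A8), a gene of the myeloid lineage. RNA came from mononuclear spleen cells enriched on anti-Sca1 beads, with 1 Affymetrix Mouse Exon 1.0 ST array per mouse. AML post MDS spleens were taken at day 36, and no source used here gives the age of the founders. The other arrays of the 15, n = 3 for each group, were of MRP8NRASD12 mice (NRASD12 alone), tethBCL2 mice (BCL2 alone, under another promoter) and HR-MDS mice. HR-MDS mice (high-risk myelodysplasia) carried both transgenes and were taken at day 80. These arrays entered the model of the spread and are compared in later paragraphs. The sample labels state AML as the disease state of every array, founders included, so the groups rest on the titles and genotypes. No value below is relative to normal FVB/N cells, which were not analysed here. Throughout, values are log2 intensities as deposited, listed in the order 3012, 3386, 3391 for MRP8hBCL2 and 3622, 3626, 3518 for AML post MDS.

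RAS proteins are switches that pass signals from growth factor and cytokine receptors to the RAF, MEK and ERK kinases and to PI3K, and the D12 change keeps NRAS in its active state. BCL2 sits on the outer mitochondrial membrane and holds back apoptosis. Sca1 is a surface protein of mouse hematopoietic stem and progenitor cells that many lymphocytes and activated cells also carry, so a Sca1+ fraction of the spleen can hold lymphoid and myeloid cells at several stages. In such bulk samples, fewer cells of a type and less RNA per cell cannot be told apart.

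Over the 14860 genes tested, 191 were higher in AML post MDS mice (1.29%) and 96 were lower (0.646%) at an adjusted p under 0.05 (limma, moderated variances over all 15 arrays, Benjamini-Hochberg), which is 1.93% of the genes in either direction. Among these called genes, the 6 largest increases were in Retnlg, C3ar1, Mmp9, Ccr1, Vcan and Mcpt8. The largest decreases among them included Cd209d, Cpne4, Siglech, Tdrp, Ccr9, Adh1 and Clec9a. Of the measured genes of mitosis 19 of 37 rose, and of DNA replication 15 of 49. The shares of 1.29% upward and 0.646% downward stand beside every list count below that uses all 15 arrays for this comparison. The median change over all genes was 0.03 on the log2 scale. After quantile normalization the calls were 359 higher and 324 lower, and after subtraction of array medians 281 and 268, so the excess of increases depended on the scaling. No gene passed when only the 6 arrays entered the model (2116 at an unadjusted p under 0.05, against 2344 with all 15 arrays), where the spread came from 2 groups in place of 5. Each standard error (SE) below comes from the model of all 15 arrays. It can be smaller than the 6 arrays listed beside it would give.

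**Figure D1:**
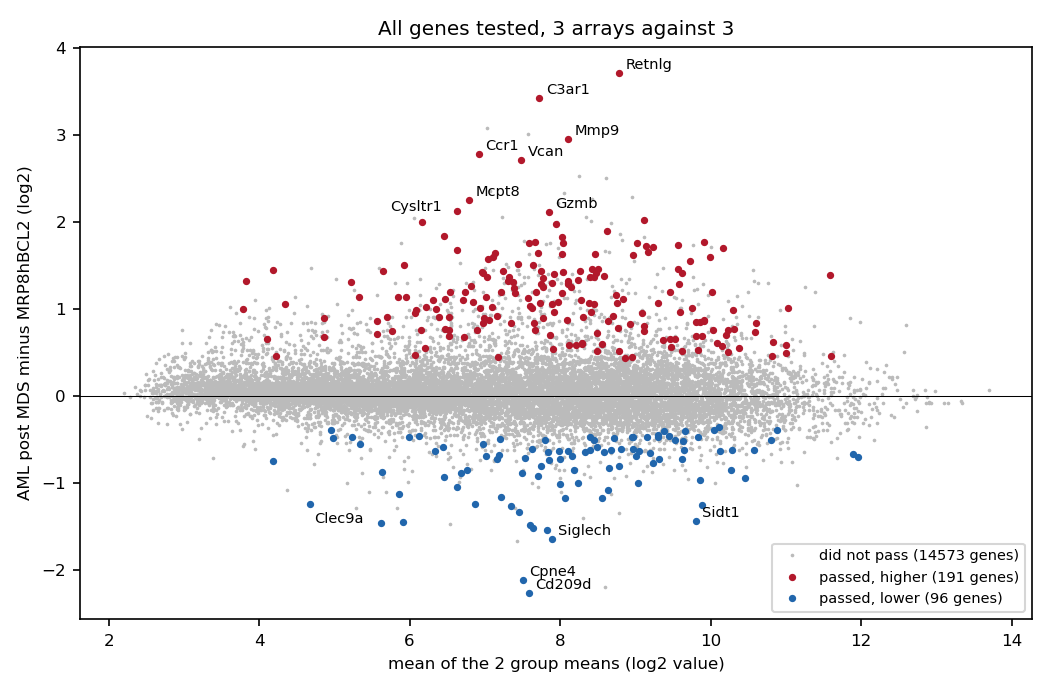
Each point is 1 gene: the x axis is the mean of both group means (log2), the y axis the difference AML post MDS minus MRP8hBCL2 (log2). The 191 genes that passed upward are red and the 96 that passed downward blue; Retnlg, C3ar1 and Mmp9 are the highest of the called genes.

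Among the arrays, MRP8hBCL2 3391 lay between the groups. Its correlation over genes was 0.982 and 0.991 with its group mates and 0.988, 0.982 and 0.991 with the AML post MDS arrays. Of the MRP8hBCL2 arrays it was the one nearest to the AML post MDS values for 166 of the 191 higher genes and 76 of the 96 lower genes. AML post MDS 3518 differed from its mates in the genes of the Y chromosome. Eif2s3y read 9.59, 9.74 and 9.75 in MRP8hBCL2 and 9.59, 9.25 and 3.64 in AML post MDS, and Kdm5d read 8.09, 8.18 and 8.50 against 8.08, 7.60 and 4.08. Sex is not in the labels, and its part in the results was not tested. Without 3391 the calls were 578 higher and 184 lower, and without 3518 they were 63 and 23. They numbered 32 in all without 3012, 14 without 3386, 93 without 3622 and 50 without 3626. Only 14 genes passed in the same direction whichever single array was left out: C3ar1, Vcan, Dab2, Trem2, Ccl22, Mmp14, Plpp2 and Ston1 upward, and Cpne4, Tdrp, Sidt1, Dzip1, Prss12 and Ust downward. Trem2, Mmp14, Plpp2, Ston1, Prss12 and Ust were named after their values were seen, the others by the fixed rule.

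All 287 called genes had groups that did not overlap, a separation also shown by 11.0% of all genes upward and 7.21% downward. An exact permutation test of 3 arrays against 3 gives each of them p = 0.1, the smallest two-sided value this design allows.

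Several receptor genes were among the largest increases. C3ar1, the receptor for the complement fragment C3a, read 5.87, 5.26 and 6.92 in the founder and 8.51, 9.40 and 10.39 in AML post MDS, a 10.7-fold difference (log2 3.42, SE 0.45, adjusted p = 0.00489). Mouse 3518 held the highest value, and the groups did not overlap. Vcan, the proteoglycan versican that classical monocytes produce, read 5.15, 6.24 and 7.0 against 8.61, 8.71 and 9.19 (log2 2.71, SE 0.37, adjusted p = 0.00569). Trem2, a lipid-sensing receptor of macrophages, read 6.10, 6.26 and 6.43 against 7.42, 7.90 and 8.17 (log2 1.57, SE 0.18, adjusted p = 0.00229). Dab2, an endocytic adaptor of macrophages that is also listed with the Wnt pathway, read 5.24, 5.00 and 5.24 against 6.77, 6.69 and 8.03 (log2 2.0, SE 0.27, adjusted p = 0.00568). For Dab2 too, 3518 stood above the other AML post MDS mice. Msr1, a scavenger receptor, read 6.38, 6.87 and 7.62 against 8.40, 8.78 and 9.59 (log2 1.97, SE 0.36, adjusted p = 0.0234).

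Ccr1, a receptor for inflammatory chemokines, read 5.00, 5.47 and 6.11 in MRP8hBCL2 and 8.38, 7.89 and 8.65 in AML post MDS, which is 6.87-fold (adjusted p = 0.0234). Cysltr1, a leukotriene receptor, read 4.68, 5.18 and 6.85 against 7.64, 7.38 and 8.06 (adjusted p = 0.0316). Tfec, a transcription factor of the MITF family in macrophages, read 6.76, 7.76 and 8.50 against 9.69, 9.45 and 9.56 (adjusted p = 0.0234). In Cysltr1 and Tfec the founder array nearest to the AML post MDS arrays was 3391. Il1rn, the antagonist of the interleukin 1 receptor, read 6.58, 6.71 and 7.04 against 8.62, 8.51 and 8.52 (log2 1.77, adjusted p = 0.0134). Ccl22, a chemokine of dendritic cells and macrophages, read 6.31, 5.80 and 6.44 against 7.76, 7.30 and 7.27 (log2 1.26, adjusted p = 0.00489), and Ccl2, which attracts monocytes, read 5.99, 6.23 and 6.06 against 6.79, 6.85 and 6.95 (adjusted p = 0.0234). Ccl22 kept its call whichever array was left out, while Ccr1, Cysltr1, Tfec and Ccl2 kept theirs only without 3391.

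The wider lists held 1 or 2 calls each, beside 1.29% of all genes tested that passed upward. Of 17 measured monocyte markers, 1 passed (Vcan) and 14 had a difference above 0, with a median of 0.92. Of 24 macrophage markers, 2 passed: Apoe, a lipid carrier, with log2 1.39 (10.72, 10.61 and 11.32 against 11.83, 12.16 and 12.84), and Gpnmb, a membrane glycoprotein of lipid-laden macrophages, with log2 0.74. The red pulp macrophage receptor Cd163 differed by 0.13 (adjusted p = 0.643) and was named after its value was seen. The median level of the monocyte list was 8.18, 8.52 and 9.36 in MRP8hBCL2 and 9.26, 9.42 and 9.90 in AML post MDS, so 3391 overlapped the AML post MDS mice. Monocyte genes passed in numbers of 1 to 3 when 1 array was left out (3 without 3391) and macrophage genes in numbers of 0 to 6 (0 without 3386, 6 without 3391).

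**Figure D2:**
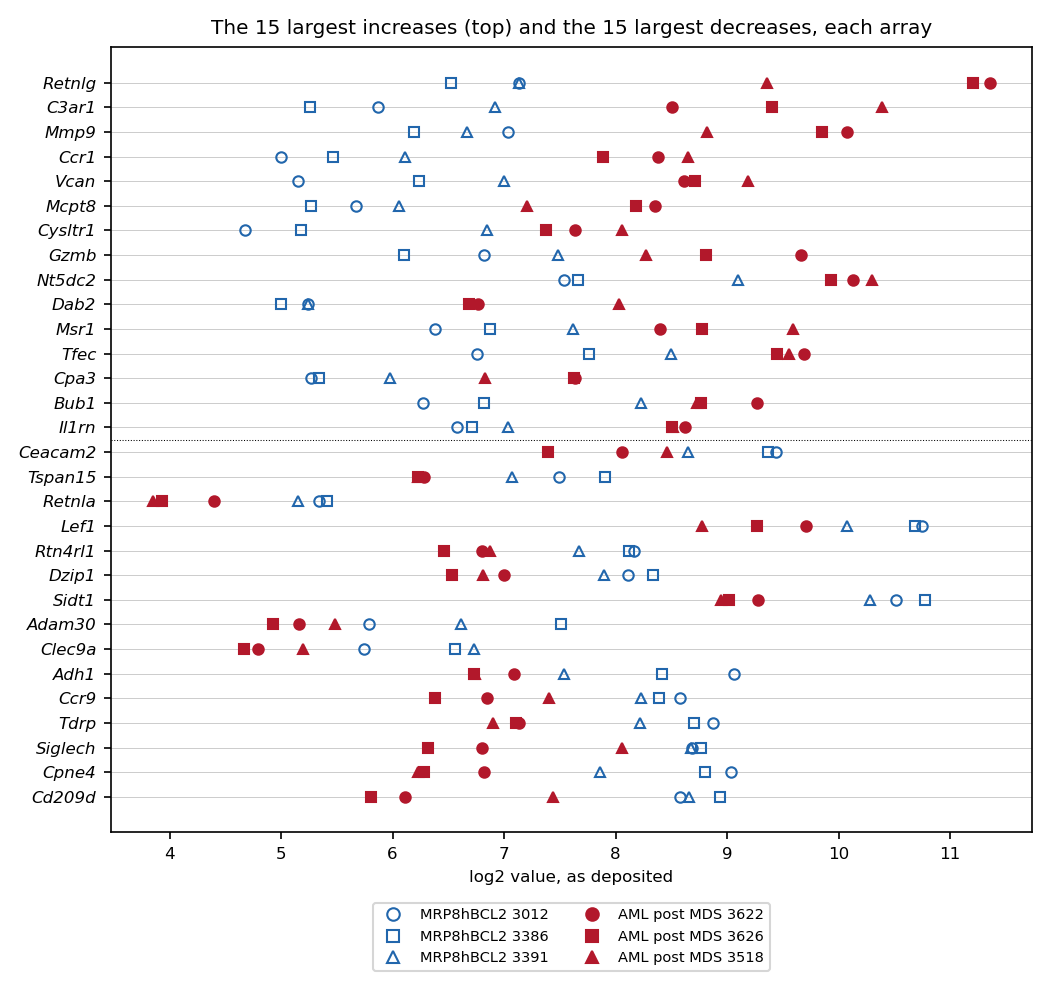
Each row is 1 gene, each symbol 1 array (open blue, MRP8hBCL2; filled red, AML post MDS), and the x axis the deposited log2 value. In every row the groups are apart, as the choice of these genes required; MRP8hBCL2 3391 (open triangle) is the founder array closest to the red symbols in many rows.

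Neutrophil granule genes had the highest median of all lists and 2 calls. Retnlg, a resistin-like protein secreted by neutrophils, had the largest increase of all called genes: 7.13, 6.52 and 7.13 in MRP8hBCL2 and 11.36, 11.21 and 9.36 in AML post MDS, 13.1-fold (log2 3.71, SE 0.71, adjusted p = 0.0234). Mmp9, the gelatinase of tertiary granules, read 7.04, 6.19 and 6.67 against 10.08, 9.85 and 8.82 (log2 2.95, SE 0.62, adjusted p = 0.0302). In both genes mouse 3518 was the lowest of the AML post MDS mice by over 1 log2 unit. These were the only members to pass of 28 measured markers of secondary and tertiary granules. Of the 28, 22 had groups that did not overlap upward, against 11.0% of all genes, and the median difference was 1.31. S100a8, the mouse counterpart of the gene that lends its promoter to both transgenes, read 10.45, 10.40 and 11.03 against 12.16, 12.02 and 11.45 (log2 1.25, SE 0.57, adjusted p = 0.312). Lcn2 (lipocalin 2) and Ngp, both granule proteins named after their values were seen, differed by 0.81 (adjusted p = 0.573) and 0.50 (adjusted p = 0.772). Their MRP8hBCL2 values were already 11.92 to 12.53 for Lcn2 and 12.23 to 12.42 for Ngp. Between 0 and 5 granule genes passed with 1 array left out: 0 without 3012, 3386, 3622 or 3626, 1 without 3518 and 5 without 3391.

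Genes of primary granules, which mark earlier myeloid cells, had a median difference of 0.97, and all 16 measured were above 0. The 1 list member that passed was Fcgr3, not a granule protein but an Fc receptor that myeloid and natural killer cells share (6.94, 7.42 and 7.98 against 8.55, 8.65 and 9.10, log2 1.32, adjusted p = 0.0341). Fcgr3 is also counted in the list of natural killer and cytotoxic cells. Among members named after their values were seen, Mpo (myeloperoxidase) read 10.05, 10.54 and 11.76 against 12.21, 12.16 and 11.54, and Elane (neutrophil elastase) 10.70, 11.49 and 12.48 against 12.76, 12.69 and 11.78. For both genes 3391 was above 3518, so the groups overlapped (adjusted p = 0.332 and 0.516). Without 3391, 3 members passed, and without any other single array none did.

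Basophil, mast cell and eosinophil genes gave 3 of 18 measured markers that passed upward. Mcpt8, a protease of basophils, read 5.67, 5.27 and 6.06 in the founder and 8.35, 8.18 and 7.21 in AML post MDS (log2 2.25, SE 0.42, adjusted p = 0.0234). Cpa3, a carboxypeptidase of mast cells and basophils, read 5.27, 5.34 and 5.98 against 7.64, 7.63 and 6.83 (log2 1.84, adjusted p = 0.0194). Epx, the eosinophil peroxidase, read 6.30, 6.08 and 6.59 against 8.12, 8.31 and 7.46 (log2 1.64, adjusted p = 0.0229). As for the neutrophil genes, 3518 was the lowest AML post MDS mouse in all 3. The median of the list was 0.27, and 3 members passed without 3518, 4 without 3391 and 0 without any one of the other arrays.

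Some genes found in dendritic cells fell, while the dendritic cell list had a median of -0.08. Cd209d, a C-type lectin of the DC-SIGN family, read 8.58, 8.94 and 8.66 in MRP8hBCL2 and 6.11, 5.81 and 7.44 in AML post MDS, 4.82-fold lower (log2 -2.27, SE 0.46, adjusted p = 0.0266). Siglech, a marker of plasmacytoid dendritic cells, read 8.69, 8.77 and 8.68 against 6.80, 6.32 and 8.06 (log2 -1.65, SE 0.36, adjusted p = 0.0335). Ccr9, a homing receptor on plasmacytoid dendritic cells and lymphocytes of the gut, read 8.58, 8.39 and 8.23 against 6.85, 6.38 and 7.40 (log2 -1.52, SE 0.27, adjusted p = 0.0231). The founder mice were close together in these genes, and 3518 kept the highest values among the AML post MDS mice. Clec9a, which marks cross-presenting dendritic cells, read 5.74, 6.56 and 6.73 against 4.79, 4.67 and 5.20 (log2 -1.46, adjusted p = 0.0331). Of 16 measured dendritic cell markers, 2 passed downward (Siglech and Clec9a) and Ccl22 upward. In all, 7 of the 16 differed by more than 0 and 9 by less. Cd209d and Ccr9 are not on that list and were named as members of the largest decreases. The calls of Cd209d, Siglech and Ccr9 held only without 3391 or without 3518. No gene of MHC class II antigen presentation passed (0 of 11, median -0.09).

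Among lymphocyte genes, 3 of T cells fell. Of 23 measured T cell markers, 21 differed by less than 0, with a median of -0.56. Groups did not overlap downward in 18 of them, against 7.21% of all genes. Lef1, a transcription factor of naive T cells and a mediator of Wnt signals, read 10.75, 10.69 and 10.08 in MRP8hBCL2 and 9.71, 9.27 and 8.78 in AML post MDS (log2 -1.26, SE 0.23, adjusted p = 0.0234). Cd247, the zeta chain of the T cell receptor, read 8.21, 8.47 and 7.98 against 7.56, 7.47 and 7.39 (log2 -0.74, adjusted p = 0.0234). S1pr1, the receptor that lets lymphocytes leave lymphoid organs, read 12.28, 12.44 and 11.95 against 11.57, 11.47 and 11.61 (log2 -0.67, adjusted p = 0.0232). The level of the whole T cell list, as its median, was 10.54 to 10.75 in the founder and 9.89 to 10.06 in AML post MDS. Without 3391, 9 T cell genes passed downward and 1 upward, without 3622 1 passed downward, and without any other array none did. Of 19 B cell markers, Bach2, a repressor that keeps B cells from becoming plasma cells, passed (10.32, 10.57 and 10.13 against 9.63, 9.51 and 8.97, log2 -0.97, adjusted p = 0.0301), and the list median was -0.21. B cell genes passed downward in numbers of 2 without 3391, 1 without 3622 and 0 otherwise.

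Cytotoxic and activation genes went both ways. Gzmb (granzyme B) read 6.82, 6.10 and 7.48 in MRP8hBCL2 and 9.66, 8.81 and 8.27 in AML post MDS (log2 2.11, SE 0.42, adjusted p = 0.0266), and Klrg1, a receptor of late effector cells, read 6.78, 6.11 and 7.19 against 7.85, 8.17 and 8.57 (log2 1.51, adjusted p = 0.0392). In contrast, Fasl (Fas ligand) read 8.46, 7.60 and 7.29 against 6.69, 6.63 and 6.56 (log2 -1.16, adjusted p = 0.0415). Ncr1, the receptor NKp46 that defines natural killer cells, was named after its value was seen and read 4.50, 4.70 and 4.47 against 4.03, 3.66 and 3.73 (log2 -0.75, adjusted p = 0.0134). These Ncr1 values were low, near those of the Y-linked Eif2s3y and Kdm5d in 3518 (3.64 and 4.08), and may lie at background. Fcgr3 was the remaining call, so 3 of 16 measured genes of this list passed upward and 2 downward, with a median of -0.32. With 1 array left out, 0 to 3 passed upward and 0 to 3 downward, with 3 and 3 without 3391 and none without 3386. Of 15 genes of activated T cells, 3 passed upward. They were Tnfrsf9 (4-1BB; 7.21, 6.97 and 7.54 against 8.87, 8.63 and 8.08), the checkpoint receptor Lag3 (6.92, 6.93 and 7.0 against 7.43, 7.30 and 7.43) and the cytokine Il10 (6.66, 6.46 and 6.23 against 7.77, 7.63 and 7.34). Adjusted p was 0.0234, 0.0302 and 0.0391. Activated T cell genes passed in numbers of 4 without 3391 or 3518 and 0 without any other array. The call of Il10 was lost without any single array (adjusted p from 0.0622 to 0.177).

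**Figure D3:**
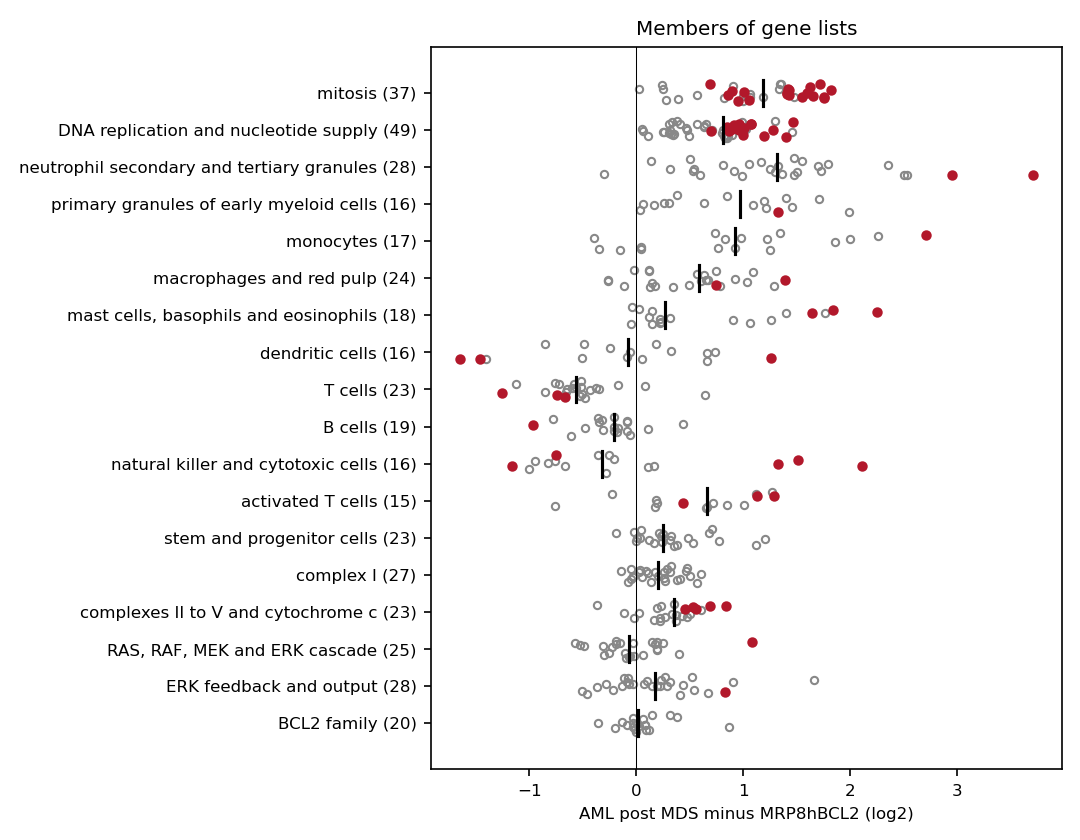
Each circle is 1 measured member of a list, with the number of members in parentheses, placed by its difference AML post MDS minus MRP8hBCL2 (log2); red circles passed, grey ones did not, and the bar is the list median. The medians run from -0.56 for T cells to 1.31 for neutrophil granules, and red circles are densest in mitosis and DNA replication.

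Cell division genes gave the densest calls of any list. Of 37 measured genes of mitosis, 19 rose and none fell, with differences from 0.02 to 1.82 and a median of 1.18. Of 49 measured genes of DNA replication and nucleotide supply, 15 rose and none fell, with a median of 0.81. Bub1, a kinase of the spindle checkpoint, read 6.27, 6.82 and 8.23 in MRP8hBCL2 and 9.27, 8.77 and 8.73 in AML post MDS (log2 1.82, SE 0.41, adjusted p = 0.0378). Plk1, the polo-like kinase of mitotic entry, read 7.41, 7.77 and 9.23 against 10.17, 9.73 and 9.77, 3.36-fold (log2 1.75, SE 0.37, adjusted p = 0.0302). Tpx2, which activates Aurora A on the spindle, read 6.54, 6.81 and 8.14 against 9.23, 8.72 and 8.78, and the spindle motor Kif11 7.60, 7.89 and 9.36 against 10.23, 9.86 and 9.91 (adjusted p = 0.0266 and 0.0336). In all 4, the founder 3391 stood more than 1 log2 unit above its mates and close to the AML post MDS mice.

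In the 4 replication genes that follow, 3391 was again the highest founder. Mcm6, a subunit of the replicative helicase, read 8.82, 8.46 and 9.29 in MRP8hBCL2 and 10.41, 9.86 and 9.87 in AML post MDS (log2 1.19, SE 0.23, adjusted p = 0.0251). Mcm10, which helps to activate that helicase, read 6.77, 6.76 and 7.76 against 8.70, 8.30 and 8.13 (log2 1.28, adjusted p = 0.0234). Ccne1 (cyclin E1), which drives entry into S phase, read 6.63, 6.90 and 8.12 against 9.01, 8.37 and 8.46 (adjusted p = 0.0351), and E2f8, a repressor of the E2F family, read 7.14, 7.43 and 8.51 against 9.61, 9.13 and 8.71 (adjusted p = 0.0415). Per array, the median of the mitosis list was 7.41, 7.46 and 8.32 in MRP8hBCL2 against 9.25, 8.77 and 8.78, and that of the replication list 7.72, 7.82 and 8.37 against 8.95, 8.50 and 8.51. Without 3391, 31 mitosis genes and 34 replication genes passed. No mitosis gene passed without any one of the other 5 arrays, and replication genes passed in numbers of 4 without 3626, 6 without 3518 and 0 without 3012, 3386 or 3622. The linker histone H1f5, which is made as DNA is copied, read 8.31, 8.50 and 9.71 against 10.48, 10.08 and 10.35 (log2 1.46, adjusted p = 0.0335). The granule, monocyte and T cell lists moved in the same comparison (medians 1.31, 0.92 and -0.56), and their part in the cell division calls was not tested. Cdkn1a, the p21 inhibitor of cyclin-dependent kinases and a p53 target, also rose (7.62, 7.24 and 7.55 against 8.79, 8.87 and 8.59, log2 1.28, adjusted p = 0.0234) and was the only one of 21 p53 targets to pass.

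Genes expressed late in the cell cycle are known for a shared promoter layout, a cell cycle homology region (TTTGAA) downstream of CCAAT boxes. Promoters from 250 bases before to 50 after the start, given by RefSeq for GRCm38.p6, were at hand for 11894 of the genes tested, for 14 of the 19 mitosis genes that rose and for 13 of the 15 replication genes, taking the first start listed for a gene. On either strand TTTGAA (or TTCAAA) was found in 10 of the 14 mitosis promoters (71.4%) and in 14.6% of all promoters, and CCAAT (or ATTGG) in 11 of the 14 (78.6%) and in 38.5% of all. Both together were in 10 of the 14 (71.4%) and in 5.9% of all. In the 13 replication promoters TTTGAA was found in 4 (30.8%), CCAAT in 9 (69.2%) and both in 3 (23.1%). The mitosis list was written for its function and not for its promoters, and no test was made of these shares. The 4 mitosis genes with both motifs and the largest increases are shown because their windows hold both, with capitals that mark every match of either motif on either strand. Their windows are chr7:122159185-122159484 on the plus strand (Plk1), chr19:37376132-37376431 on the plus strand (Kif11), chr11:99024140-99024439 on the minus strand (Top2a, topoisomerase II of mitotic chromosomes) and chr10:69352863-69353162 on the minus strand (Cdk1, the kinase of mitosis).
Plk1: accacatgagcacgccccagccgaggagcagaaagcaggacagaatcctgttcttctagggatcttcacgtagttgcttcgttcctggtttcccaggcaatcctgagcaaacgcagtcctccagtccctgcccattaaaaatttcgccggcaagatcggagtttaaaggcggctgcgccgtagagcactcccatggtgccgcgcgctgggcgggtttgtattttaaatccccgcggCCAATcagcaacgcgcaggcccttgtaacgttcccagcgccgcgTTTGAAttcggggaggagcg
Kif11: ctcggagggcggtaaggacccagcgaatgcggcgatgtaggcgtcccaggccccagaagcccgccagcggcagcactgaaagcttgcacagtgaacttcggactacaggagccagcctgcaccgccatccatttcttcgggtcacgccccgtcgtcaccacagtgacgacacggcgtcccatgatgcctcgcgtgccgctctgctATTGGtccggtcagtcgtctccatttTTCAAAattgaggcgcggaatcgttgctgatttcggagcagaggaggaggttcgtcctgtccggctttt
Top2a: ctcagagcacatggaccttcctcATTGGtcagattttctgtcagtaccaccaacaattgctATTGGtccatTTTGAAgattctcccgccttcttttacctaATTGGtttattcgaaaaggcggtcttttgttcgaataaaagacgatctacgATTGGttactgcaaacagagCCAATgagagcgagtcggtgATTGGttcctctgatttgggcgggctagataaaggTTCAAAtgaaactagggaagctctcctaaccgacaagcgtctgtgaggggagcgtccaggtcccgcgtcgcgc
Cdk1: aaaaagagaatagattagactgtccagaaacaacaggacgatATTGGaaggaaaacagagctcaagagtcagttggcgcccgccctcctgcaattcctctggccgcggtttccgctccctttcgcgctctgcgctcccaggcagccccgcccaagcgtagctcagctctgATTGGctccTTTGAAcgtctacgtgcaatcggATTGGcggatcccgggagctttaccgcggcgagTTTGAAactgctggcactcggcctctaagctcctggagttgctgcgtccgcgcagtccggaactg

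Replication genes are known as targets of E2F factors. An E2F site, written as TTTCCCGC or TTTGGCGC on either strand (GCGGGAAA and GCGCCAAA), was in 3 of the 13 promoters of replication genes that rose (23.1%), in 0 of the 14 mitosis promoters and in 2.5% of all promoters. The matches were in Mcm3, Mcm5 and Mcm6, subunits of one helicase ring. The windows with 2 matches are those of Mcm6 (chr1:128359656-128359955, minus strand) and Mcm3 (chr1:20820263-20820562, minus strand), shown with the E2F matches in capitals. No motif overlapped another in the promoters of either list, and 13 of the 11894 promoters held an overlapping pair.
Mcm6: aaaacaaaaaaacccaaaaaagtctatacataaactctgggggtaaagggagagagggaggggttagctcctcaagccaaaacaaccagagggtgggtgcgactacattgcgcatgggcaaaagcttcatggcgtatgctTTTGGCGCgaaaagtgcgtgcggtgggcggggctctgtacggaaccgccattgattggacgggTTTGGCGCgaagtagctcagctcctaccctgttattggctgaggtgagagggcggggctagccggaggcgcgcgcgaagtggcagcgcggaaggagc
Mcm3: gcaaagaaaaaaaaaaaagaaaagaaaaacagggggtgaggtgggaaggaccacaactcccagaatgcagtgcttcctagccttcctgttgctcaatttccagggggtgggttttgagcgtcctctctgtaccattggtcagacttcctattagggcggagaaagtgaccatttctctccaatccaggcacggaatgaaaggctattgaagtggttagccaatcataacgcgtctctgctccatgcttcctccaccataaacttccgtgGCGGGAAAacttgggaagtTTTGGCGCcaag

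**Figure D4:**
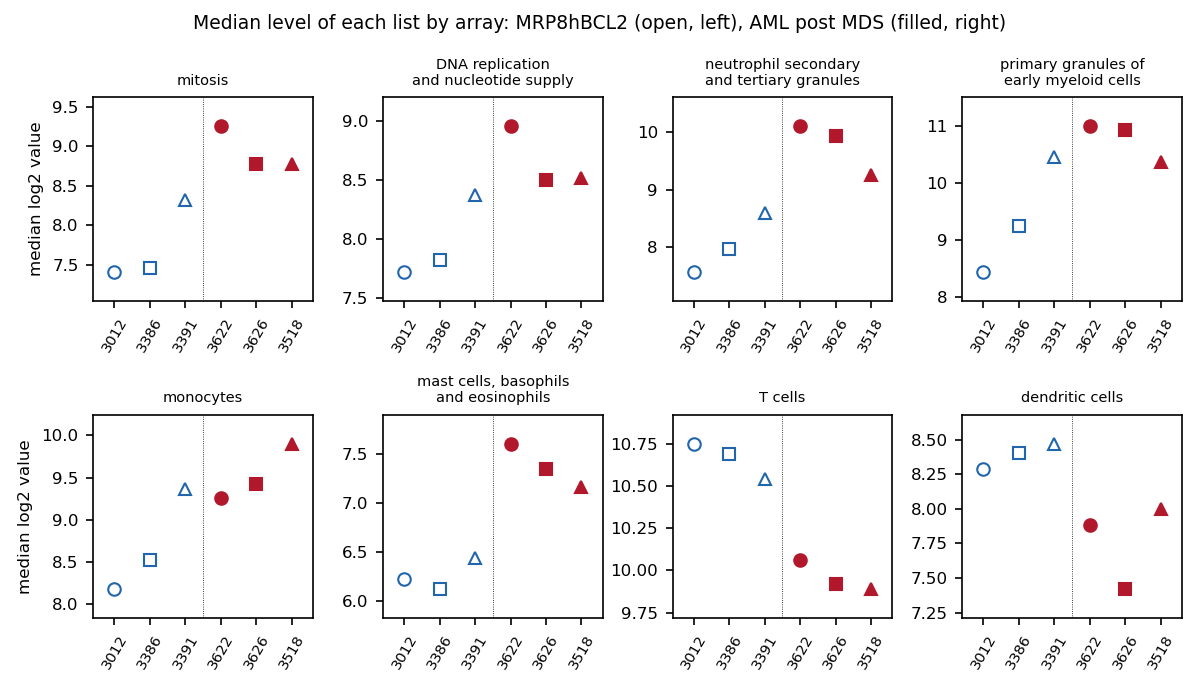
Each panel gives the median log2 level of a list (y axis, different scales) in each array (x axis, mouse numbers), MRP8hBCL2 open and AML post MDS filled. Array 3391 lies at 8.32 for mitosis, between its mates and the AML post MDS mice, while for T cells its 10.54 stays with the founder.

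Of 23 measured genes of respiratory complexes II to V and cytochrome c, 5 rose, with a median of 0.35, beside 1.29% of all genes tested that passed upward. Of 27 genes of complex I 0 passed (median 0.20), which is near that share for a list of this size. Groups did not overlap upward in 15 of the 23 and in 8 of the 27, against 11.0% of all genes. Cox6b1, a subunit of cytochrome c oxidase, read 10.56, 9.86 and 10.13 in MRP8hBCL2 and 11.25, 11.04 and 10.78 in AML post MDS (log2 0.84, SE 0.17, adjusted p = 0.0266). Cyc1, the cytochrome of complex III, read 9.69, 9.40 and 9.60 against 10.21, 9.96 and 10.10 (log2 0.53, SE 0.10, adjusted p = 0.0251). Cox5a, Sdhd and Uqcrq made up the 5. Tpi1, a glycolytic enzyme, read 10.36, 10.30 and 10.89 against 11.67, 11.53 and 11.38 (log2 1.01, adjusted p = 0.0234) and was the only one of 25 genes of glycolysis and hypoxia to pass. P4hb and Hyou1, which fold proteins in the endoplasmic reticulum, were the 2 of 41 secretory genes that passed (log2 0.73 and 0.64, adjusted p = 0.0229 and 0.0493), and 15 of the 41 rose without 3391 but 0 without any other single array. None of 52 mitochondrial ribosome genes (median 0.18) or of 33 proteasome genes (median 0.24) passed. Without 3391, 3 mitochondrial ribosome genes, 5 proteasome genes and 3 complex I genes rose, and without 3518 1 mitochondrial ribosome gene did. Of complexes II to V, 6 genes rose without 3391, 1 without 3012 or 3518, and 0 without any other array. The calls of Cox5a, Sdhd, Cyc1, P4hb and Hyou1 held only without 3391, and that of Cox6b1 only without 3012, 3391 or 3518.

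The pathways of the transgenes themselves held 1 call or none each, beside 1.29% of all genes tested that passed upward. Mouse Nras read 9.51, 9.74 and 9.73 in MRP8hBCL2 and 9.70, 9.34 and 9.76 in AML post MDS (log2 -0.06, SE 0.14, adjusted p = 0.921), and mouse Bcl2 read 10.62, 10.78 and 10.76 against 10.37, 10.44 and 10.27 (log2 -0.36, SE 0.13, adjusted p = 0.166). Both transgenes are human, and whether the mouse probe sets read them was not tested, so these values do not check the labels. The gene of Sca1, Ly6a, has no probe set of its own among those used. Of 25 measured genes of the RAS, RAF, MEK and ERK cascade, 1 passed: the adaptor Gab2 read 6.95, 7.28 and 8.05 against 8.37, 8.34 and 8.84 (log2 1.08, adjusted p = 0.0472). Of 28 genes of ERK feedback and output, Spred1, an inhibitor of RAS signaling, passed (6.77, 6.76 and 7.25 against 7.83, 7.64 and 7.82, log2 0.83, adjusted p = 0.0334). List medians were -0.07 and 0.17. The feedback phosphatase Dusp6, named after its value was seen, read 10.08, 9.72 and 9.88 against 10.31, 10.17 and 10.77 (log2 0.52, adjusted p = 0.15). No member of the BCL2 family passed (0 of 20, median 0.02), and the killer protein Bak1 came nearest (log2 0.87, adjusted p = 0.0504) and passed without 3391. The calls of Gab2 and Spred1 held only without 3391.

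Cytokine signaling was represented by single genes, beside 1.29% of all genes tested that passed upward and 0.646% downward. Counts of 0 or 1 in the lists of this paragraph are near those shares. Of 69 interleukins, tumour necrosis factors and their receptors, 4 rose (Il1rn, Tnfrsf9, Csf2rb and Il10) and 1 fell (Tgfbr2, a receptor for TGF-beta, named after its value was seen). Csf2rb, the beta chain shared by the receptors for interleukin 3, interleukin 5 and GM-CSF, read 8.18, 9.04 and 9.60 in MRP8hBCL2 and 10.25, 10.18 and 10.23 in AML post MDS (log2 1.28, adjusted p = 0.0386). Cish, a feedback inhibitor induced by STAT5, read 7.99, 8.03 and 8.37 against 9.20, 8.76 and 8.60 (log2 0.72, adjusted p = 0.0467) and was the only one of 24 SOCS, JAK and STAT genes to pass. Among 35 chemokines and receptors, 3 rose (Ccr1, Ccl22 and Ccl2) and Ccr9 fell. Without 3391, 7 interleukin and tumour necrosis factor genes rose and 2 fell, and without 3012 or 3386 none passed. In the Wnt pathway (56 measured), Dab2 rose, and Lef1 and Axin2 fell. Axin2, a feedback target of the canonical pathway, read 7.49, 7.60 and 7.51 against 7.05, 6.64 and 6.88 (log2 -0.68, adjusted p = 0.0426). Irf7, the master regulator of type I interferon, was the only one of 25 interferon-stimulated genes to pass (8.48, 8.46 and 8.34 against 7.96, 7.58 and 7.84, log2 -0.64, adjusted p = 0.0266). No gene passed among 23 stem and progenitor markers (median 0.25), 17 erythroid markers, 19 platelet markers, 30 Toll-like receptor genes or 18 genes of cholesterol synthesis. Of 13 plasma cell markers 0 passed, but 6 rose without 3391. Single calls came from 44 genes of DNA repair (Fanci), 22 antioxidant genes (Gpx3) and 22 endothelial and stromal markers (Stab1). The call of Stab1 was lost whichever array was left out (adjusted p from 0.0533 to 0.198). Those of Csf2rb, Cish, Axin2, Fanci and Gpx3 held only without 3391. Without 3391, 12 DNA repair genes, 4 stem and progenitor markers, 2 Toll-like receptor genes and 2 antioxidant genes rose, and 1 gene of cholesterol synthesis did.

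Several of the strongest decreases were outside these lists. Tdrp, a testis development protein, read 8.87, 8.70 and 8.22 in MRP8hBCL2 and 7.13, 7.11 and 6.90 in AML post MDS (log2 -1.55, SE 0.15, adjusted p = 0.00101). Cpne4, a calcium-dependent copine, read 9.04, 8.80 and 7.86 against 6.82, 6.28 and 6.23 (log2 -2.12, SE 0.28, adjusted p = 0.00489), 4.35-fold lower. Sidt1, a transmembrane protein of RNA uptake that lymphocytes express, read 10.52, 10.78 and 10.28 against 9.28, 9.02 and 8.95 (log2 -1.44, SE 0.16, adjusted p = 0.00215). All 3 calls held whichever array was left out. Adh1 (an alcohol dehydrogenase), Adam30, Rtn4rl1, Retnla, Tspan15, Dzip1 and Ceacam2 completed the 15 largest decreases, with log2 differences from -1.49 to -1.18. Nt5dc2 and Gzmb completed the 15 largest increases, and Nt5dc2 read 7.54, 7.66 and 9.10 against 10.13, 9.93 and 10.30 (log2 2.02, SE 0.30, adjusted p = 0.00988).

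The study's own gene lists for AML post MDS were chosen on these samples and are no independent evidence of a direction. The study chose them by comparison with normal FVB/N cells at a p-value cutoff, and it names no adjustment for the number of genes. Its pathway lists came from genes dysregulated in AML post MDS and not in the founders, so the MRP8hBCL2 arrays took part in that choice. The counts here differ in the reference and in the threshold, as they are against MRP8hBCL2 directly and use adjusted p. A list member without a call here can therefore still differ from normal FVB/N cells, which was not tested. Against MRP8hBCL2, 4 of 15 measured genes of its cell cycle list rose (median 0.89), 3 of 22 of its cytokine list (median 0.52), and 1 of 12 of its oxidative phosphorylation list (Cox5a, median 0.39). Its JAK-STAT list (12 genes) and its list of histone and immune genes (7) each gave Il10, and its list of raised Wnt genes (8) gave Dab2. Its lists of pyrimidine metabolism (13), Toll-like receptor signaling (11), replication and repair (4) and lowered Wnt genes (12) gave none. From its genes opposite in AML post MDS and founders, 24 named in its text were taken, a part of its full list, and 18 were measured. Of these, Cox5a rose, and Sidt1 and Vipr1 fell. The study counts genes opposite to either founder, and one opposite only to MRP8NRASD12 need not differ from MRP8hBCL2. Without 3391, 11 genes of the cell cycle list, 4 of oxidative phosphorylation, 3 of pyrimidine metabolism and 2 of Toll-like receptor signaling rose.

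The other double transgenic model offered a comparison with separate arrays. HR-MDS mice (high-risk myelodysplasia, n = 3, 80 days) carry MRP8NRASD12 and a BCL2 transgene switched on through the MMTV-LTR promoter, and their BCL2 founder is tethBCL2 (n = 3). The change of HR-MDS from tethBCL2, which shares no array with the main comparison, passed for 63 genes upward (0.424%) and 4 downward (0.0269%). Of the 191 genes higher in AML post MDS, 15 also rose in HR-MDS (7.9% of the AML post MDS calls and 23.8% of the HR-MDS calls), among them Retnlg, Mmp9, Apoe, Tpi1, Plk1, Tpx2 and H1f5. Of the 96 lower genes, 1 also fell in HR-MDS (1.0% of the AML post MDS calls, and 1 of the 4 HR-MDS calls), the lipid transporter gene Abca5. The sign of change was the same in 97.9% of the 191 and in 91.7% of the 96, against 64.6% of all genes. Median HR-MDS changes of the called genes were 0.54 for the 191 and -0.21 for the 96, where those in AML post MDS, which the calls selected, were 1.07 and -0.68.

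The difference between the changes of both models passed for 0 of 14860 genes (0%; limma, 684 at an unadjusted p under 0.05). Of those at an unadjusted p under 0.05, 66 were among the 191 higher genes and 63 among the 96 lower genes; the arrays that made these calls also enter the difference. Sizes side by side were therefore given without a verdict on any gene. C3ar1 differed by 3.42 in AML post MDS against 0.72 in HR-MDS, where it read 4.64, 4.65 and 4.87 in tethBCL2 and 5.49, 5.91 and 4.93 in HR-MDS (difference of changes 2.69, SE 0.64, adjusted p = 0.551). Tdrp differed by -1.55 against -0.21 (difference -1.34, SE 0.22, adjusted p = 0.114). For S100a8 the order was the reverse, 1.25 against 5.97 (difference -4.72, SE 0.81, adjusted p = 0.114). The founders themselves were far apart in S100a8, with 5.93, 4.63 and 5.92 in tethBCL2 and 10.45, 10.40 and 11.03 in MRP8hBCL2, while HR-MDS read 12.31, 12.39 and 9.68. The HR-MDS mouse 8398, at 9.68, was below every MRP8hBCL2 mouse. Mouse numbers of tethBCL2 and HR-MDS came from other series than those of MRP8hBCL2 and AML post MDS, and the ages of the founders are not given. Such differences cannot be told apart from the genotype, and their part was not tested. The mitosis list had nearly equal medians in both changes (1.18 and 1.11), and Plk1 changed by 1.75 and 1.98. The T cell list had medians of -0.56 and -0.19, and the neutrophil granule list had 1.31 against 3.24.

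**Figure D5:**
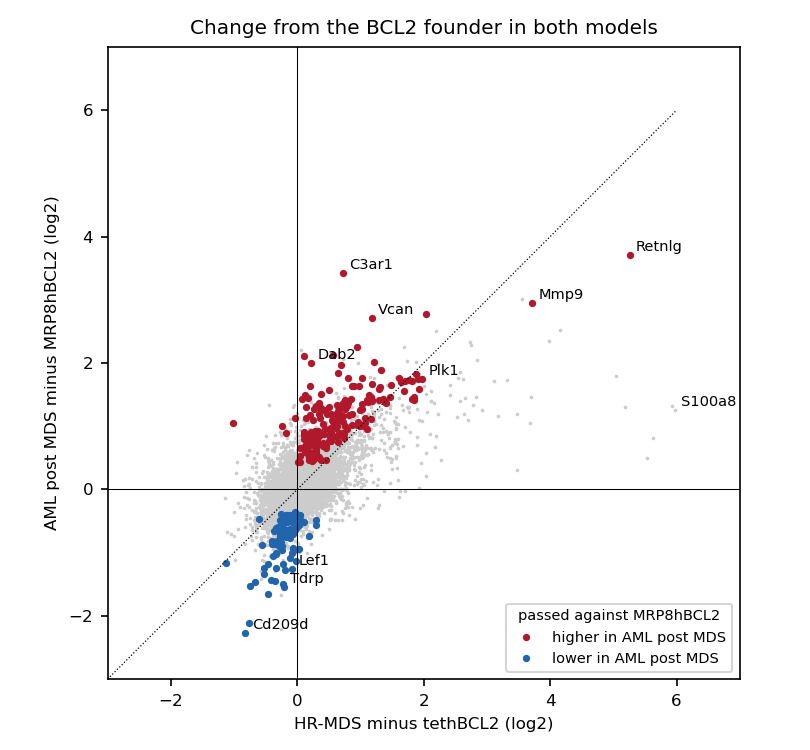
Each point is 1 gene: the x axis is HR-MDS minus tethBCL2 (log2), the y axis AML post MDS minus MRP8hBCL2 (log2), and the dotted line marks equal changes. Genes called in AML post MDS are coloured; C3ar1 (0.72 and 3.42) lies above the line, S100a8 (5.97 and 1.25) far below it.

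Against the other founder, MRP8NRASD12 (n = 3), which carries the mutant NRAS alone, 13.6% of genes were higher in AML post MDS and 8.74% lower. That comparison uses the same AML post MDS arrays, so values stand side by side only. The Y-linked Eif2s3y read 3.66, 3.79 and 4.01 in MRP8NRASD12 (8157, 8158 and 8159), against 9.59, 9.25 and 3.64 in AML post MDS. Mouse numbers also came from another series. Both differed along with the genotype, cannot be told apart from it for all genes, and their part was not tested. C3ar1 differed by 3.42 from MRP8hBCL2 and 3.92 from MRP8NRASD12, Gzmb by 2.11 and 3.25, Dab2 by 2.0 and 1.74, and Tdrp by -1.55 and -1.07. These genes lay on the same side of both founders. Retnlg differed by 3.71 from MRP8hBCL2 and -0.96 from MRP8NRASD12 (adjusted p = 0.381), and Mmp9 by 2.95 and -1.91 (adjusted p = 0.0397), so Mmp9 stood between its founders. Cd209d and Ccr9, lower than in MRP8hBCL2, differed from MRP8NRASD12 by 0.68 and 0.03 (adjusted p = 0.328 and 0.957).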

How the data were processed

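Spleen Sca1+ cells of 15 mice in 5 groups of 3 were measured with Affymetrix Mouse Exon 1.0 ST arrays, 1 for each mouse. Values were deposited on the log2 scale for each probe set; the authors used EASANA with FAST DB annotations. No source used here gives their probe summary or array scaling. Their detection filter was not applied again, and the depth of an array has no counterpart in counts, so the number of arrays limits the precision.

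Of 23332 probe sets, those with 1 gene symbol (14996) were kept and 1019 with several and 7317 with none left out. Symbols were matched by Entrez number to RefSeq GRCm38.p6 for 14941. The probe set with the highest mean was taken for the 135 genes with more than 1, which left 14860 genes, all tested. The model (limma 3.58.1, R 4.3.3) had a mean for each of 5 groups, eBayes, two-sided, Benjamini-Hochberg over all genes, threshold 0.05. The 3 contrasts used beside the main one came from the same model. Single genes had exact permutation tests of 3 arrays against 3. Nothing says whether each mouse is an independent litter or cohort, so p-values measure the spread between these mice.

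The arrays compared, the gene lists and the rule for named genes were chosen with earlier results of these data known. The rule named the 15 largest increases and 15 largest decreases among called genes with separate groups; up to 4 called members of each list, by size of change, or the 2 of smallest p where none was called; and Nras, Bcl2, S100a8, Ly6a and sex-linked genes. Lists were described by counts and medians, with no set test, and some lists are not reported here. The steps were tested on simulated data for AML post MDS against MRP8hBCL2, with 200 of 14860 genes changed: at 1.5-fold 25 of 50 were called, at 2-fold 42, at 4-fold 49 and at 8-fold 50, with 12 of 14660 unchanged genes. The simulated noise was independent between genes and equal in spread between arrays. The real arrays were not equal (array weights from 0.17 for MRP8NRASD12 8157 to 3.13 for MRP8hBCL2 3386), so these rates do not carry over to them. Promoter motifs were searched by exact match on both strands of 300 bases. Tables and figures were made with Python 3.11.15 and matplotlib 3.10.9.

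Alternatives were quantile normalization, subtraction of array medians, a filter on the 0.25 of genes lowest in mean, only the 6 arrays compared (for the difference between models, the 12 arrays of 4 groups), eBayes with trend and robust, every probe set as its own row, array weights, averaged probe sets per gene, at least 2-fold change, omission of each array in turn and the methods' t-test. Models without MRP8NRASD12 8157, and without MRP8hBCL2 3391 and AML post MDS 3518, were added after the data were seen.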

Additional observations from a re-analysis of the deposited data

How the results depend on the processing

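The count of 287 genes that differed between AML post MDS and MRP8hBCL2 rested on the spread pooled over 5 groups. It was 683 after quantile normalization, 549 after subtraction of array medians, 1759 with array weights, 78 over all probe sets, 131 with a least fold of 2, and 0 with only the 6 arrays. It stayed within 1.5 times of 287 without the 0.25 of genes lowest in mean (384), with eBayes trend and robust, and with averaged probe sets. The methods' t-test called 1511 genes without adjustment and 0 after Benjamini-Hochberg; 1 gene had no spread and no value. The count was 463 without MRP8NRASD12 8157 and 538 without MRP8hBCL2 3391 and AML post MDS 3518, both chosen after seeing the data. With 1 array of the comparison left out it ran from 14 (without 3386) to 762 (without 3391), with 32 without 3012, 93 without 3622, 50 without 3626 and 86 without 3518. Quantile normalization kept 283 of the 287 genes, array weights 287, and the model without 3386 kept 14.

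The difference between the changes of both models, with 0 genes, gave 14 with array weights and 0 to 11 with 1 of 12 arrays left out (11 without HR-MDS 8398, 8 without MRP8hBCL2 3012, 2 without AML post MDS 3518, 1 without MRP8hBCL2 3391). Of the named genes, only Nras, within its standard error of 0, changed sign (from -0.14 to 0.07 with 1 array left out, 0.07 without AML post MDS 3626). No paired analysis was possible because the groups share no mouse number. No pseudocount applied to values already on the log2 scale. With 3 arrays a group, the number of arrays limits what can pass.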
